A study of Mus musculus with 6 samples.

Results

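Tcap, Klhl31, Klhl34 and Lmod2 code for proteins of the muscle sarcomere or for relatives of muscle-specific ubiquitin ligase adaptors. The probes described here are those that the platform annotation names with exactly 1 of these 4 symbols. The 4 genes, of 3939 named on the array, had 9 of its 13872 probes: 5 for Tcap, 2 for Lmod2 and 1 each for Klhl31 and Klhl34. The genes had been put together as lower after pacing, so their low values against the unpaced muscle describe how they were chosen and were not tested. For Lmod2 the data went against that description, since neither of its probes was clearly below the sham array at any time.

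The study measured total RNA from mouse skeletal muscle on 6 arrays with 2 channels each, and every group was 1 array. The sham group carried a pacer that was implanted and left off, and its harvest corresponded in time to that of the 0 h group. The paced groups were stimulated for 3 h through the pacer, and muscle was taken 0 h, 1 h, 3 h, 8 h or 24 h after stimulation ended. Where values of the 5 paced arrays follow each other in order of time below, they belong to these times. On every array channel 2 held the same reference RNA, called Pre, from control muscle. The strain, age and sex of the mice, the muscle, and the number of mice behind each RNA were not stated in the labels. Differences from sham after 0 h mix pacing with elapsed time, and with 1 array a group no difference below has a replicate check or a p-value. All values are log2 ratios of the sample to Pre, or differences between 2 such ratios. The dyes were not stated, so the direction of the ratio, sample over Pre, is the likely reading.

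The Z-disc is the plate at each end of a sarcomere where thin filaments and the giant elastic protein titin are anchored. Tcap, also called telethonin, caps the ends of titin molecules there. BTB-kelch proteins such as Klhl31 and Klhl34 carry a BTB domain, through which many of the family bind the cullin Cul3, and kelch repeats, which bind the proteins to be tagged with ubiquitin. Leiomodins such as Lmod2 start new actin filaments and lengthen thin filaments at their pointed ends.

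Across the array, the share of probes with a measured value ran from 87.3% at 0 h to 95.2% at 8 h. The robust standard deviation (SD) of all probes' log2 ratios ran from 0.176 at 1 h to 0.495 in sham, so the same log2 value stands farther out on the 1 h array than on the sham array. Some values are therefore also placed by their percentile among all probes or genes measured in the same comparison. For genes with exactly 2 probes, the probes' differences from sham lay a median of 0.41 apart at 24 h (511 genes) and 0.40 apart at 8 h (612 genes). For 1 in 10 of these genes the gap was over 1.14 at 24 h and over 1.06 at 8 h. Spots listed under the same sequence accession lay farther apart, a median of 0.62 at 24 h (38 pairs), with 1 in 10 over 1.45. These spreads cover probes on the same arrays, not arrays or animals. For Klhl31 and Klhl34, which have 1 probe each, they stand in for the spread between probes only, not for the whole error. Probes can bind transcripts of close relatives, so a kelch or leiomodin probe may report more than 1 gene of its family. The sham array alone had empty cells (485). Shared values were searched for on the sham array only, where 154 were found, so they do not set it apart from the paced arrays. Whether the sham array was made in another way is not stated, which touches every difference from sham.

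Tcap was the best measured of the 4 genes and had its lowest level at 24 h. Probe 1892 stood at 0.58 in sham and, in order of time, at -0.20, -0.097, -0.28, -0.60 and -1.39. Probe 2881 stood at 0.14 in sham and, in order of time, at -0.14, 0.036, -0.16, -0.53 and -1.21. Probe 8933 stood at 0.29 in sham and, in order of time, at -0.12, 0.017, -0.62, -0.51 and -1.30. On all 3 of these probes the 24 h array was the lowest and the sham array the highest. Probe 9990 stood at 0.57 in sham and, in order of time, at 0.075, 0.026, -0.10, -0.45 and -0.94, the same order at the ends with a smaller depth at 24 h. The other Tcap probe, 9221, was listed at exactly 0 on every paced array except that of 8 h. On sham it carried a value of 1.05 that other probes in its run of consecutive probe numbers shared. Both kinds of entry were treated as not measured, which left its 8 h value of -0.23.

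**Figure D1:**
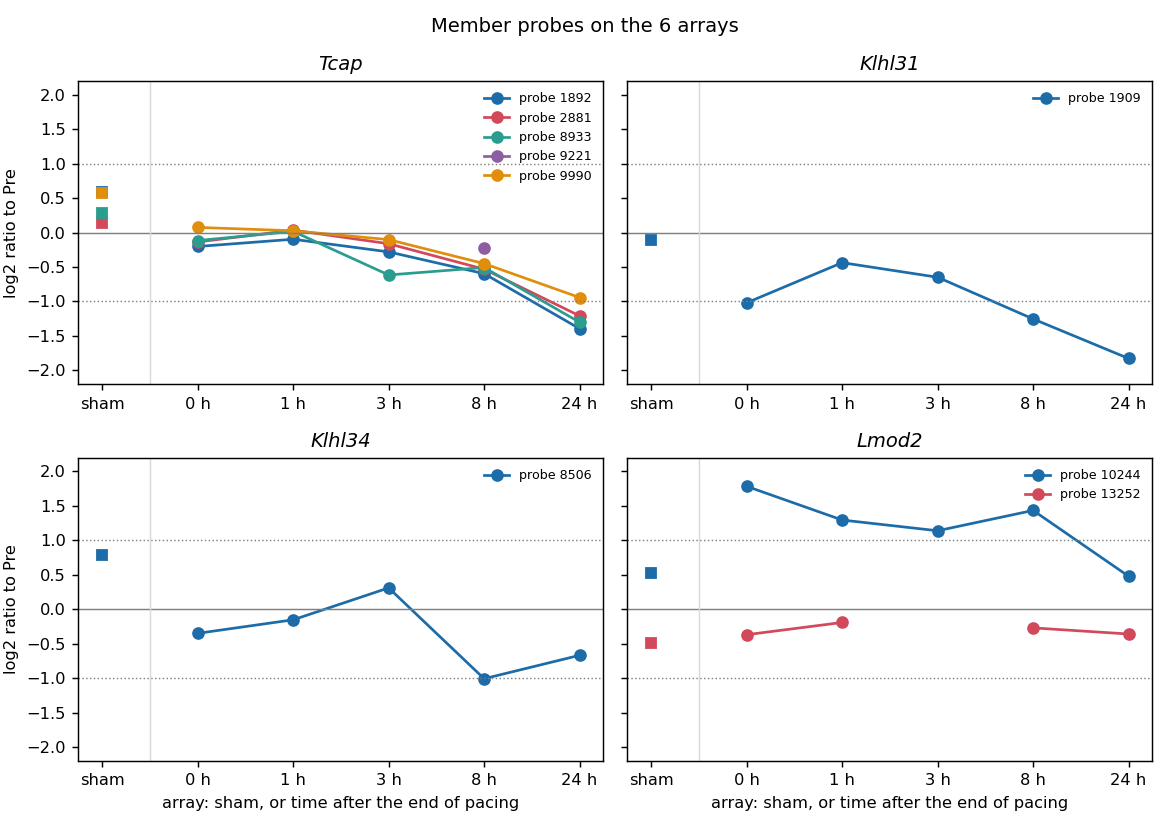
Log2 ratio to Pre (vertical axis) of each member probe on the sham array (squares) and on the 5 paced arrays (circles joined by lines, by time after pacing); 1 array per group, with no error bars, and dotted lines at a fold of 2. Tcap probes end between -1.39 and -0.94 at 24 h, Klhl31 is lowest at 24 h, Klhl34 is lowest at 8 h, and the 2 Lmod2 probes lie apart.

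The time at which Tcap was first at least 2-fold lower depended on the probe and on the unpaced RNA it was set against. Against sham, probes 1892 and 9990 were past 2-fold at 8 h, at -1.18 and -1.02, while probes 2881 and 8933 were at -0.67 and -0.79. At 24 h all 4 measured probes were past it, at -1.98, -1.35, -1.59 and -1.51, which is 2.55-fold to 3.94-fold lower than sham. Their mean at 24 h was -1.61 with a probe SD of 0.27, a percentile of 0.417 among all genes. Against Pre no Tcap probe was 2-fold lower until 24 h, when 3 of the 4 were and probe 9990, at -0.94, was just short. Part of the difference from sham lay in the sham array itself, where the gene mean was 0.39 above Pre (probe SD 0.22, 4 probes).

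Comparing paced arrays with each other leaves the sham array out. From 8 h to 24 h the 4 Tcap probes differed by -0.80, -0.68, -0.79 and -0.49, the largest step between neighbouring times on each of these probes. That interval was also the longest. On probe 8933 the step over the shorter interval from 1 h to 3 h was -0.63. From 0 h to 24 h the 4 Tcap probes differed by -1.19, -1.07, -1.19 and -1.02, each more than 2-fold. The percentile of these 0 h to 24 h differences among all probes lay between 0.756 and 1.48.

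Klhl31 had a different course, with a low value at the end of pacing, values nearer to sham at 1 h and 3 h, and lower values again at 8 h and 24 h. Klhl31 is needed for normal skeletal muscle, and filamin C is among the proteins it is known to bind. Its probe, 1909, stood at -0.11 in sham and, in order of time, at -1.02, -0.44, -0.65, -1.25 and -1.83. All 5 paced arrays were below sham. Against sham its 5 differences in the same order were -0.91, -0.32, -0.54, -1.14 and -1.71, so it was first 2-fold lower at 8 h and was still so at 24 h, at 3.28-fold. Against Pre it was 2-fold lower already at 0 h, as well as at 8 h and 24 h. When each array was scaled to the same spread, the differences from sham in order were -1.11, -0.77, -0.42, -1.69 and -1.48. The time nearest to sham and the time farthest from it, 1 h and 24 h without scaling, were then 3 h and 8 h, and the 0 h difference was past 2-fold. Among all probes, the unscaled ratios to Pre had percentiles, in order of time, of 0.834, 4.04, 10.8, 0.553 and 0.312. Those of the unscaled differences from sham were 5.38, 20.2, 9.47, 1.58 and 0.312. The 1 h value thus stood farther out than the 3 h value against Pre, and less far out against sham.

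From 0 h to 1 h Klhl31 was higher by 0.58 on the log2 scale, higher than 96.5% of all probes measured at both times. The later steps were -0.21 from 1 h to 3 h, -0.61 from 3 h to 8 h and -0.57 from 8 h to 24 h. The step from 1 h to 24 h was -1.39, a 2.62-fold lower level, with a percentile of 0.370.

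Klhl34, a member of the same family, was lowest at 8 h and not at 24 h. Its probe, 8506, stood at 0.79 in sham and, in order of time, at -0.35, -0.15, 0.31, -1.01 and -0.67. The sham value was the highest of the 6, higher than 94.5% of the probes on that array, and the 3 h value was the highest among the paced arrays. Against sham its 5 differences in the same order were -1.14, -0.94, -0.48, -1.80 and -1.46. Their percentiles among all probes were 2.50, 1.14, 11.6, 0.148 and 0.859, so the 1 h difference stood farther out than that of 0 h. Klhl34 was 2-fold lower than sham at 0 h, at 8 h (3.48-fold) and at 24 h (2.75-fold). When each array was scaled to the same spread, however, the 0 h difference was -0.96, short of 2-fold. Against Pre it was 2-fold lower at 8 h alone, at -1.01, a value at the threshold. The step from 3 h to 8 h was -1.32, a 2.49-fold lower level with a percentile of 0.612 among all probes. From 8 h to 24 h it was higher by 0.34. The ratios to Pre of genes with exactly 2 probes lay a median of 0.18 apart at 8 h and 0.29 apart at 24 h.

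The promoters of the kelch genes, which were both below sham on all 5 paced arrays, are shown beside that of Lmod2, which was not. By symbol, 3 of the 4 genes matched the promoter table. The sequences are the 250 bases before the annotated start, from RefSeq on GRCm38.p6, 5′ to 3′ on the plus strand. They lie at chr9:77636482-77636731 for Klhl31, chrX:157818185-157818434 for Klhl34 and chr6:24597521-24597770 for Lmod2. Capitals mark the matches to 4 motifs searched on both strands: the E-box CANNTG, bound by MyoD and its relatives, the MEF2 site, the CArG box of serum response factor, and the MCAT element CATTCC.
Klhl31: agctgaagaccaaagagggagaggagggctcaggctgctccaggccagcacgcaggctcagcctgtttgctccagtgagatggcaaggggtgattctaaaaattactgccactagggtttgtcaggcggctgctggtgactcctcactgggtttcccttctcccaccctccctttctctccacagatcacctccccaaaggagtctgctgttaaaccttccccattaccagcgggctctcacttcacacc
Klhl34: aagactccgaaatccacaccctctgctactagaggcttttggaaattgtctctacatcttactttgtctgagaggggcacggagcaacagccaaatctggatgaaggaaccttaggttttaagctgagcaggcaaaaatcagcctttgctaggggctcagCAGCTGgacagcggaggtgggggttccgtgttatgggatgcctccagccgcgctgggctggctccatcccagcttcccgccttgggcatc
Lmod2: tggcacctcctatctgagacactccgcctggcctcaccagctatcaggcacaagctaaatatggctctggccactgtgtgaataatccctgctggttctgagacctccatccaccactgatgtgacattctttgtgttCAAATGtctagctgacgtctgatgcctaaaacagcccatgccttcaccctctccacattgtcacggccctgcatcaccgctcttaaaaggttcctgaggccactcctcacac
Klhl34 and Lmod2 held 1 E-box each, CAGCTG from base -90 to base -85 and CAAATG from base -112 to base -107, counted back from the start. The Klhl31 window held 0 of the 4 motifs, and no match to the other 3 was in the Klhl34 or Lmod2 window. Of 32851 promoter windows of this length, 66.2% held an E-box, 12.6% an MCAT element, 2.92% a MEF2 site and 1.47% a CArG box, so most windows held an E-box. No motif match overlapped another.

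Lmod2 was the exception, and its 2 probes gave different pictures. Probe 10244 stood at 0.53 in sham and, in order of time, at 1.78, 1.29, 1.14, 1.43 and 0.48. It was thus above Pre on all 6 arrays, and above sham on the 4 arrays from 0 h to 8 h. Its difference from sham was 1.25 at 0 h, 2.38-fold higher, and 0.76, 0.61 and 0.90 at 1 h, 3 h and 8 h. At 24 h it was -0.053, level with sham. From 8 h to 24 h this probe differed by -0.96, a 1.94-fold lower level with a percentile of 1.03.

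Probe 13252 stood at -0.49 in sham, -0.37 and -0.19 on the 0 h and 1 h arrays, and -0.27 and -0.36 on those of 8 h and 24 h, and was listed at exactly 0 at 3 h. It was below Pre on all 5 arrays that measured it, sham included, and its differences from sham lay between 0.12 and 0.30. The 2 probes lay 2.15 apart at 0 h, and 99.4% of the 544 genes with 2 measured probes there had a smaller gap. They lay 1.49 apart at 1 h and 1.70 at 8 h, again wider than 99.3% or more of such genes, and 0.84 apart at 24 h, wider than 87.3%. Which of the probes reports the level of Lmod2 was not tested. The mean of both was 0.69 above sham at 0 h (probe SD 0.80) and 0.038 above it at 24 h (probe SD 0.13). At 3 h the gene mean was 1.12 above sham because only the higher probe was measured there, and on that probe alone the difference was 0.61.

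Counted by probe, 6 of the 8 measured member probes were at least 2-fold lower than sham at 24 h, beside 3.98% of all probes. The other 2 were those of Lmod2. The count was 4 of 8 at 8 h (2.69% of all probes). It was 0 of 7 on the 3 h array (1.45%), 0 of 8 on that of 1 h (0.878%) and 1 of 8 immediately after pacing (3.95%). In the other direction, 1 of 8, Lmod2 probe 10244, was at least 2-fold higher at 0 h (5.08% of all probes). Against Pre the counts were 4 of 8 for the 24 h array (2.51% of all probes) and 2 of 9 for 8 h (1.15%). For 3 h the count was 0 of 7 (3.74%), for 1 h 0 of 8 (0.238%) and for 0 h 1 of 8 (0.884%). Both conditions together were met by 2 of 8 at 8 h, Klhl31 and Klhl34 (0.57% of all probes), and by 4 of 8 at 24 h, 3 Tcap probes and Klhl31 (1.43%). No member probe met both on the 0 h, 1 h or 3 h array, where 0.458%, 0.0325% and 0.58% of all probes did. Since the genes were chosen for being lower, nothing is read from these counts against the background. All comparisons with sham share the sham array, and all arrays share Pre. Between paced arrays, 5 of 8 probes were at least 2-fold lower at 24 h than at 0 h (1.56% of all probes), the 4 Tcap probes and Lmod2 probe 10244.

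**Figure D2:**
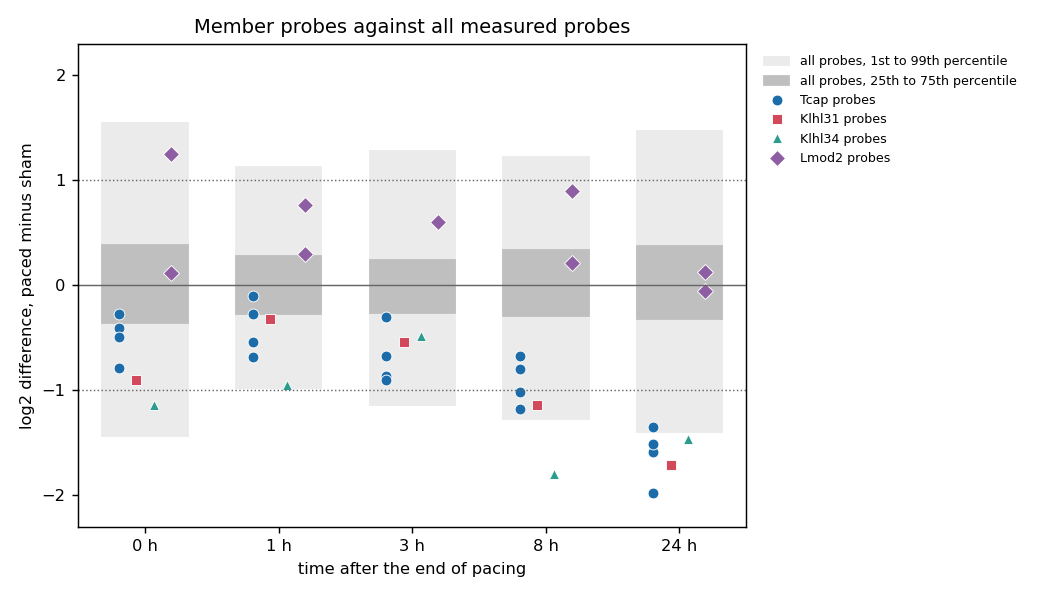
Log2 difference from sham (vertical axis) of each member probe at 5 times after pacing; grey boxes span the 1st to 99th and the 25th to 75th percentile of all measured probes, and dotted lines mark a fold of 2. At 24 h the 4 Tcap probes lie between -1.98 and -1.35 and Klhl31 and Klhl34 at -1.71 and -1.46, while both Lmod2 probes lie near 0.

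Other genes of the Z-disc had a list median above sham at 24 h. Of 39 other Z-disc and titin genes listed, 30 were on the array and 28 could be set against sham. At 24 h their median difference was 0.16, beside 0.085 over 3598 genes, with 11 below sham and 17 above, and 42.2% of all genes were below sham. With zeros and shared values kept, that list median was 0.056. Against Pre the list median at 24 h was 0.032, with 14 genes below and 16 above, beside 0.0077 over all genes. At 24 h 0 of the 28 were 2-fold lower than sham and 1 was 2-fold higher, beside 2.89% and 3.09% of all genes. At the 4 earlier times 0 of the 28 were 2-fold lower than sham, and 1 was 2-fold higher, at 8 h alone. At those 4 times, in order, the shares of all genes 2-fold lower than sham were 3.07%, 0.676%, 0.992% and 1.87%. The shares 2-fold higher were 3.43%, 0.865%, 1.43% and 1.79%. At the other 4 times the list median lay between 0.028 and 0.071. The 1 higher gene, at both 8 h and 24 h, was Ankrd1, a stretch-responsive partner of titin. Its difference from sham was 1.54 at 8 h (3 probes, probe SD 1.57) and 3.01 at 24 h (3 probes, probe SD 2.29).

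Myoz1, which binds calcineurin and alpha-actinin at the Z-disc of fast fibres, came closest to Tcap within the list. Its mean over 11 probes (10 at 1 h) stood at 0.39 in sham and, in order of time, at -0.11, 0.060, 0.14, -0.19 and -0.58. At 24 h it was -0.97 from sham (11 probes, probe SD 0.22), just short of 2-fold. Titin itself, Ttn, stood at -0.34 in sham and -0.00073 at 24 h, level with Pre. Its difference from sham at 24 h was 0.33, or 0.34 when taken probe by probe over 44 probes (probe SD 0.57). The alpha-actinin genes, whose proteins cross-link thin filaments at the Z-disc, were near sham at 24 h, Actn3 at -0.092 (10 probes, probe SD 0.33) and Actn2 at -0.15. Ldb3, which binds alpha-actinin, stood at -0.47 at 8 h and -0.16 at 24 h. Csrp3, which binds Tcap at the Z-disc, stood at -0.40 in sham and, in order of time, at -0.19, -0.062, 0.32, 0.040 and -0.099. It was thus above sham at each time, by up to 0.72 at 3 h (8 probes, probe SD 0.62), but below Pre at 3 of the 5 times.

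The list of other BTB-kelch and Cul3 ligase genes took its Klhl, Kbtbd and Klhdc names from those on the array, so its coverage of the family is not shown. Of its 18 genes, 15 were on the array and 14 could be compared with sham at 24 h. Their median was 0.36 at 24 h, with 4 below sham and 10 above, beside 0.085 over all genes, and 0.23 when each array was scaled to the same spread. Against Pre their median at 24 h was 0.075, with 6 below and 8 above, beside 0.0077 over all genes. At 24 h 1 gene was 2-fold lower than sham and 0 were 2-fold higher, beside 2.89% and 3.09% of all genes. The lower gene was Klhl41, a muscle kelch protein that stabilises nebulin, and it followed a course like that of Klhl34 up to 3 h. Its probe stood at 0.74 in sham and, in order of time, at -0.41, 0.054, 0.55, -0.16 and -0.62. Against sham its differences in order were -1.14, -0.68, -0.19, -0.90 and -1.35. Unlike Klhl34, it was lowest at 24 h, and it was not 2-fold from Pre at any time. Cul3, on 1 probe, had differences from sham of -0.39, -0.26, -0.029, -0.52 and -0.53. Klhl17 was 2-fold higher than sham at 0 h, at 1.31, and at 8 h, at 1.04, with its sham value at -1.07 against Pre. Klhl24 was measured at 8 h alone, at -1.04 against Pre.

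**Figure D3:**
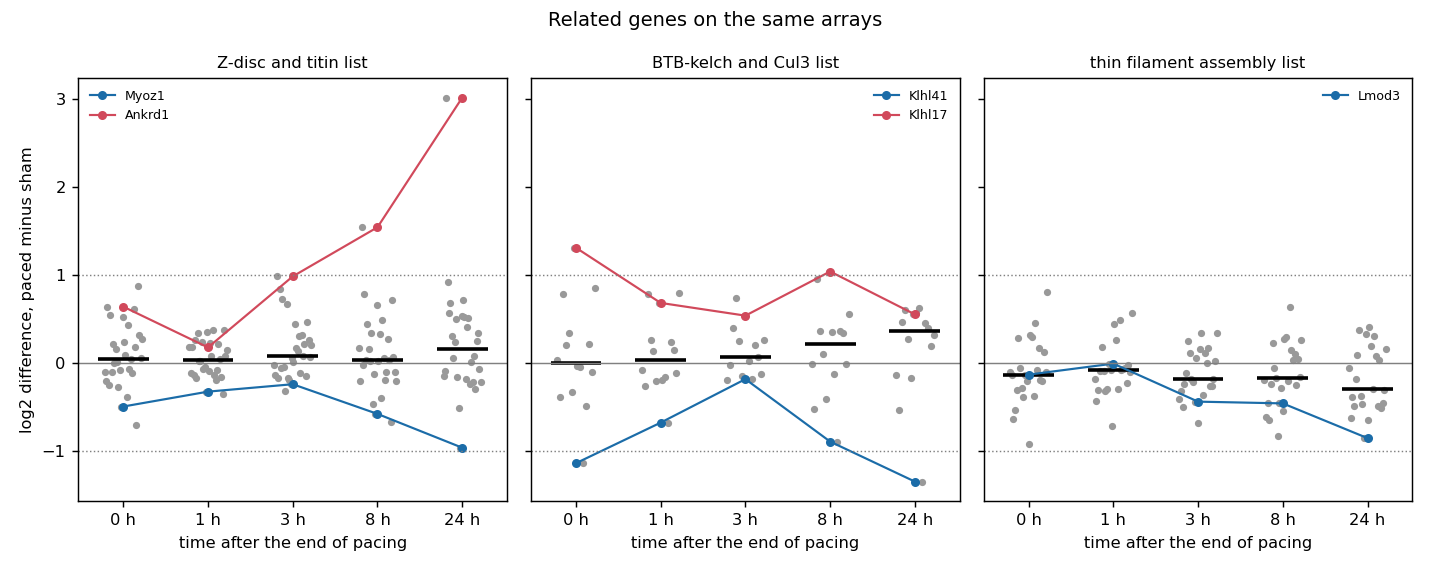
Log2 difference from sham (vertical axis) at 5 times after pacing for genes of 3 lists (grey points, 1 per gene; black bars, list medians), with the 4 genes excluded and selected genes joined by lines; dotted lines mark a fold of 2. At 24 h Myoz1 (-0.97) and Klhl41 (-1.35) lie at the low end of their lists and Ankrd1 (3.01) at the high end, and the thin filament median is -0.30.

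Genes of thin filament structure and assembly had list medians below sham at each time. Of 35 genes, 24 were on the array, and 23 could be compared with sham at 24 h. Their median was -0.30 beside 0.085 over all genes, with 14 below sham and 9 above. With zeros and shared values kept, that median was -0.21. Against Pre the list median at 24 h was -0.19, with 18 genes below and 6 above, beside 0.0077 over all genes. At the 4 earlier times the medians against sham were -0.14, -0.087, -0.18 and -0.18. Of the list genes, 0 were 2-fold from sham in either direction at any of the 5 times. Of all genes, 0.676% to 3.07% were 2-fold lower than sham at these times and 0.865% to 3.43% were 2-fold higher. Lmod3, the leiomodin of skeletal muscle, differed from both Lmod2 probes in its course. It stood at -0.73 in sham and, in order of time, at -0.87, -0.74, -1.17, -1.19 and -1.59. It was below Pre on all 6 arrays and lowest at 24 h, at -0.86 from sham on 1 probe.

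Markers of cell types show how far the mixture of cells moved with these values; in whole muscle, fewer cells of a type and less RNA per cell cannot be told apart. Ratios carry no levels, so they do not show whether a marker is present or absent. Of 11 fibre markers 10 were on the array, and 9 could be compared with sham. The median difference of these 9 from sham lay between -0.081 at 0 h and 0.15 at 8 h. On any array, 0 of the fibre markers were 2-fold from sham or Pre. Of all genes, 0.676% to 3.07% were 2-fold lower than sham and 0.865% to 3.43% higher. Against Pre these shares were 0.0796% to 2.49% and 0.690% to 3.74%. The 5 fibroblast markers on the array had a median of -0.58 from sham at 24 h and -0.27 from Pre, and lay between -0.43 and 0.063 from sham at the other times, with 1 of 5 at least 2-fold lower at 3 h (0.992% of all genes). Against Pre 2 of the 5 were 2-fold lower at 3 h (2.49% of all genes) and 1 was at 24 h (1.56%), at -1.38. The 4 endothelial markers had medians between 0.037 and 0.26 from sham, with 1 of 4 2-fold higher at 3 h, at 1.19 (1.43%). Of 3 smooth muscle markers on the array 2 could be compared with sham, with medians from -0.55 to -0.13, and 1 of the 2 was 2-fold lower at 8 h, at -1.04 (1.87%). Only 2 leukocyte markers were on the array, with medians from -0.31 to 0.093, and 1 each for red blood cells, -0.44 to -0.12, and adipocytes, -0.52 to 0.11. The part of these shifts in the values of Tcap, Klhl31 and Klhl34 was not tested.

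The profiles most like each gene were found by the root mean square difference of gene means over the 6 log2 ratios to Pre, among 3179 other genes. For Tcap they were Phf6 (0.18), Ghr, the growth hormone receptor (0.19), and Fkbp5, a co-chaperone of steroid receptors (0.19). All 3 were lowest at 24 h, at -1.03, -0.92 and -0.85, less low than the Tcap mean of -1.21. For Klhl31 they were Plaat1, a phospholipid-modifying enzyme (0.20), Ampd1, the muscle AMP deaminase (0.23, 6 probes), and Grb14, an adaptor of the insulin receptor (0.23). Each was lower at 0 h than at 1 h and lowest at 24 h, at -1.75, -1.54 and -1.89. At 0 h Plaat1 (-1.31) and Grb14 (-1.15) stood lower than Klhl31 (-1.02). For Klhl34 they were Syt4 (0.23), Arhgap31 (0.26) and Septin6 (0.27). Syt4 and Arhgap31 shared its lowest value at 8 h, at -1.002 and -0.978, and Septin6 did not, at -0.42. For the mean of Lmod2 they were Zfp207 (0.26), the scaffold gene Homer2 (0.26, 3 probes) and Acadvl, of fatty acid oxidation (0.28), with values at 3 h of 1.23, 0.92 and 0.68. The Lmod2 mean at 3 h, 1.14, is that of probe 10244 alone, so this likeness rests in part on which probe was measured there. Between the 4 genes themselves the measure lay between 0.45, for Tcap and Klhl34, and 1.53, for Klhl31 and Lmod2.

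**Figure D4:**
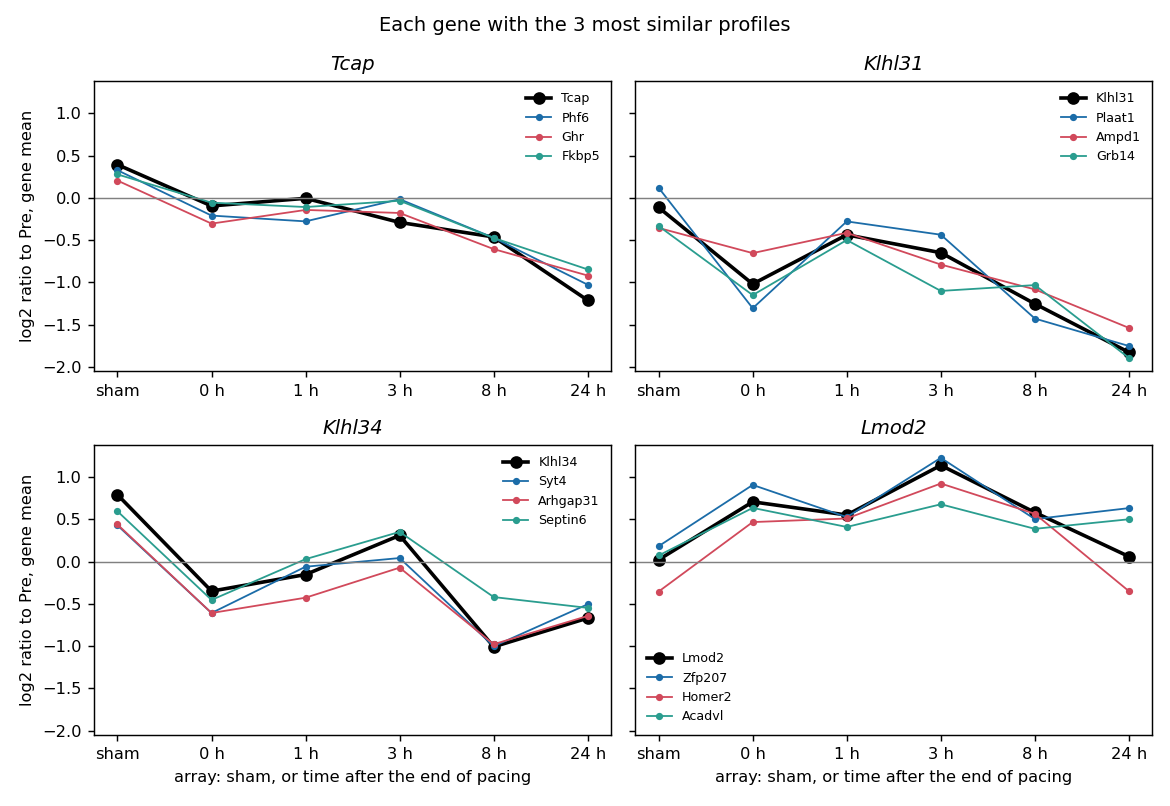
Gene mean log2 ratio to Pre (vertical axis) on the sham array and 5 paced arrays for each of the 4 genes (black) and the 3 genes with the smallest root mean square difference from it (coloured); 1 array per group, with no error bars. The Tcap and Klhl31 sets end lowest at 24 h, and 3 of the 4 Klhl34 lines are lowest at 8 h. The Lmod2 mean at 3 h is that of probe 10244 alone.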

How the data were processed

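The values the authors deposited are log10 ratios of 13872 probes on 6 arrays, with no signal levels. Per the labels, channel 1 held the sample and channel 2 the Pre reference. The log base was read from 97 cells at the rounding residue 9.64e-17; how the arrays were scanned, corrected and normalised is not given in the sources used here.

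Ratios were converted to log2. Exact zeros (201 to 1762 per array; 0 within 1e-12) and, on sham, 154 values shared within a run of 289 probes were treated as missing, and each array was centred on its median. Of the 13872 probes, 6609 had exactly 1 gene symbol, of which 6599 were matched by Entrez ID to the GRCm38.p6 gene table, used for names. Measured probes of a gene were averaged. A call was a fold of 2, an absolute log2 difference of 1 or more. With 1 array per group no test was run; the number of arrays limits the precision. Fibre, leukocyte, fibroblast, endothelial, red blood cell, adipocyte and smooth muscle marker lists and 3 related gene lists were described by counts and medians. Named genes were every member probe, list genes 2-fold from both sham and Pre, set relatives of the members, and the 3 most similar profiles of each; Klhl17 and Klhl24, beyond that rule, were chosen after their values were seen. The members, the lists and the handling of zeros were chosen with earlier results of these data known. The centring, the handling of exact zeros and the 2-fold call were tested on simulated data with a smaller spread than that of the arrays. The gene lists, the profile likeness and the motif search were not tested in this way. Python 3.11.15, pandas 2.3.3 and numpy 2.4.6 were used.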

Additional observations from a re-analysis of the deposited data

How the results depend on the processing

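Precision rests on 1 array per group. No paired analysis was possible because each group has 1 array, and for the same reason no replicate could be left out. With zeros and shared values kept, Tcap probe 9221 entered the counts of member probes 2-fold lower than sham, which became 2 at 0 h, 1 at 1 h and 1 at 3 h. With calls at 1.5-fold those counts were 3 at 0 h, 2 at 1 h and 3 at 3 h, and the count against Pre at 3 h was 2. The other 53 recomputed probe counts were within 1.5 times the main ones, and the BTB-kelch list median with zeros kept was 0.020 in place of 0.22 at 8 h and -0.078 in place of 0.029 at 1 h (-0.022 after scaling). For single genes, the 24 h difference from sham ranged over the alternatives from -1.62 to -1.31 for Tcap, from -1.76 to -1.48 for Klhl31, from -1.46 to -1.12 for Klhl34 and from 0.029 to 0.038 for Lmod2. Scaling to a common spread moved Klhl31 past 2-fold at 0 h (-1.11), put it nearest to sham at 3 h (-0.42) and farthest at 8 h (-1.69), moved Klhl34 short of it there (-0.96) and put Lmod2 at 1.05 at 1 h; the cause was not tested. Lmod2 at 3 h was 1.12 in the main values, 0.55 with zeros kept, 0.86 after scaling and 0.61 where only probe 10244, with a value on each array, was used.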

Other observations

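Spots that the annotation lists under the same sequence accession differed more than probes of the same gene did in general. Among 38 such pairs measured at 24 h and in sham, the differences from sham lay a median of 0.62 apart, against 0.41 for the 511 genes with exactly 2 probes. At 8 h the medians were 0.57 (54 pairs) and 0.40 (612 genes), and at 1 h 0.48 (47 pairs) and 0.36 (568 genes). Tcap probes 8933 and 9221 are 1 such pair: at 8 h, the single time both were measured, they stood at -0.51 and -0.23 against Pre. For the differences from sham at 24 h, the 4 Tcap probes measured on both arrays had a probe SD of 0.27. The robust SD of a single probe there was 0.42 from the genes with exactly 2 probes. For a single spot it was 0.65 from the pairs under the same accession.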
